A study of Mus musculus with 4 samples.

Results

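The clustered protocadherin genes are 3 neighbouring sets of cell adhesion genes, named alpha, beta and gamma, on mouse chromosome 18. Their members were all genes of the GENCODE annotation of the mm9 build on that chromosome whose symbol starts with Pcdha, Pcdhb or Pcdhg, which gave 25 gene entries of 37252 annotated genes. CTCF binding sites were taken from the first to the last of these genes and 200 kb further on both sides, an interval of 1.31 Mb from 36889939 to 38201527. It held 10 of the 10113 sites listed at ZT0 and 8 of the 6799 listed at ZT12.

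The sites come from ChIP-seq against CTCF in the liver of wild type male C57BL/6 mice of 8 weeks, fed ad libitum under a cycle of 12 h of light and 12 h of darkness, with 2 biological replicates at ZT0 (lights on) and 2 at ZT12 (lights off). ChIP-seq recovers the DNA bound by a protein with an antibody and sequences it. Each time point has 1 list of positions for both replicates, without a score, a strand or a read count. The lists hold fewer sites than the study describes in all, and the other sites were not analysed here, so a stretch without a listed site is not shown to be unbound. The spread between replicates and the depth behind a site are therefore unknown, no test between the times was possible, and the 95% Wilson confidence intervals given below cover counting error only.

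Each transcript of the alpha and gamma sets joins 1 of many variable first exons, each with a promoter of its own, to constant exons that the set shares, whereas each beta gene is complete in a single exon. In neurons, individual cells choose few of these promoters, and the choice involves CTCF and cohesin, which bind at many variable promoters and exons and at distant enhancers. The HS5-1 element lies between the alpha constant exons and the beta genes, and the HS16 to HS20 elements lie downstream of the gamma constant exons. The clusters are known mainly for their role in the nervous system, and methylation of a CG inside its motif can hinder CTCF binding.

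The annotation placed the alpha transcripts under 2 entries (Pcdha3 and Pcdha11) and all gamma transcripts under 1 (Pcdhgc5), beside 22 beta genes. The variable first exons were therefore read from the transcripts, which gave 41, with 10 of the alpha, 22 of the beta and 9 of the gamma set. RefSeq lists 14, 22 and 22 genes of these sets in the later build GRCm38.p6, and the exons without a transcript in the annotation were not analysed here as promoters. The stretch of DNA in which they lie was searched for sites like the rest of the interval.

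Along most of the clusters no CTCF site was listed at either time, in lists that do not hold every site of the study. A single gap without a site ran over 1074 kb from 36851348 to 37925411. It took in the whole alpha and beta sets and 38 of the 41 variable first exon starts. Of the 11203 gaps between neighbouring sites of both lists together, 436 were longer (3.89%), and the median gap was 65.5 kb. Within each list alone, 460 of 10093 gaps were longer at ZT0 (4.56%) and 504 of 6779 at ZT12 (7.43%). On chromosome 18, 18 of the 308 gaps of both lists together were longer. These are shares of gaps and not of the genome. A long gap covers more sequence than a short one, so a larger share of the genome lies in gaps this long. That share was not computed. The gap held the 5′ ends of 39 protein-coding genes. These include the protein-coding protocadherin entries, so the count partly restates that a gene cluster was chosen. The 436 longer gaps held a median of 5, and 22 of them held as many or more. The site just before the gap of 1074 kb, at 36851069 to 36851300 in the ZT0 list, lay in a coding exon of E230025N22Rik. It was 38.6 kb outside the interval and was shared by both lists. From the first to the last protocadherin gene there were 2.19 sites per Mb at ZT0 and 1.10 at ZT12, against 3.02 and 2.00 on the rest of chromosome 18. These rates rest on 2 sites at ZT0 and 1 at ZT12, too few to be set apart from the rest of the chromosome.

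**Figure D1:**
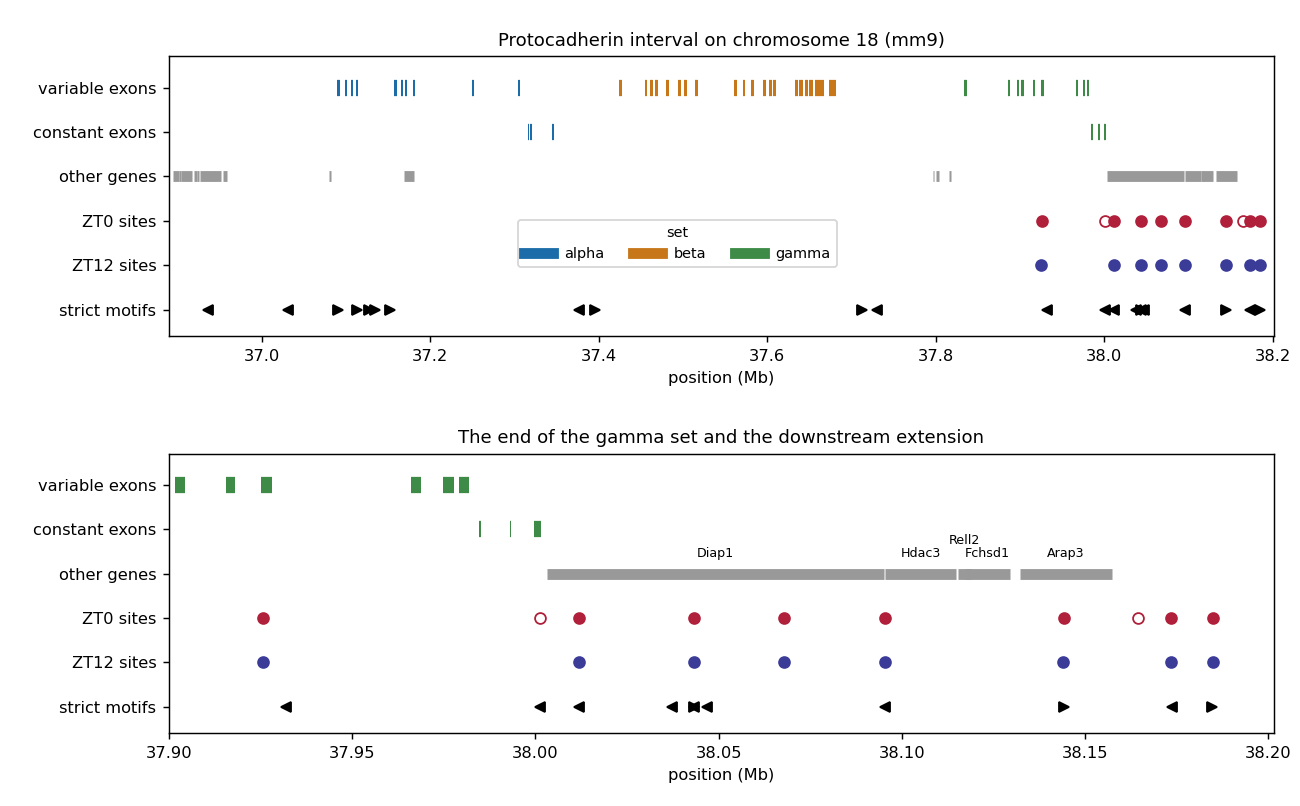
Map of the protocadherin interval on chromosome 18 (mm9, position in Mb), whole above and from the end of the gamma set below. Bars are variable exons, constant exons and other protein-coding genes, filled circles are sites listed at both times, open circles are sites listed at ZT0 only, and triangles are strict CTCF motif matches that point right on the plus strand and left on the minus strand. All 10 ZT0 and all 8 ZT12 sites lie at 37925412 or beyond, while 12 of the 22 strict matches lie before the gamma constant exons.

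In the alpha set no site was listed at either time from Pcdha1, the first gene, to the last constant exon. The alpha variable region of 226 kb held 0 sites, and so did the 31.5 kb from the first to the last constant exon (37315809 to 37347311). The nearest site to an alpha variable exon start lay at a median of 310 kb at both times. The C-type members Pcdhac1 and Pcdhac2, which are regulated apart from the other alpha genes, were 398 and 452 kb from the nearest ZT0 site. The interval of 77.3 kb from the alpha constant exons to Pcdhb1, which is known to hold HS5-1, had no listed site either.

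The beta set, from Pcdhb1 at 37424652 to the end of Pcdhb22 at 37681073, spanned 256.4 kb and held no site at ZT0 or ZT12. Its 22 genes were between 247 and 501 kb from the nearest ZT0 site, with a median of 337 kb. The 153 kb from the end of the beta set to Pcdhga3, the first gamma exon in the annotation, held 0 sites as well. This stretch may include gamma exons that the annotation lacks. For comparison, the median distance from the 5′ end of all 22350 protein-coding genes was 47.7 kb at ZT0 and 76.1 kb at ZT12.

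In the gamma set a site was listed at 1 variable exon at both times, that of Pcdhga12, the last of the A-type genes. The first exon of Pcdhga12 runs from 37925234 to 37928194. The ZT0 site at 37925450 to 37925736 began 0.216 kb past the exon start and the ZT12 site at 37925412 to 37925676 began 0.178 kb past it, so that both lay inside the exon, in its 5′ non-coding part. They also lay in an intron of Gm16882, a lincRNA on the opposite strand. The sites shared 227 bp, which is 79.1% of the ZT0 site and 85.7% of the ZT12 site. The widths of 287 and 265 bp were close to the median width of each whole list, which was 313 bp for ZT0 and 285 bp for ZT12.

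Counted over the 41 variable promoters, taken as 1 kb on either side of the exon start, 1 had a site at ZT0 and the same 1 at ZT12 (2.44%, 95% confidence interval 0.432 to 12.6%). Of all protein-coding genes, 7.04% had a ZT0 site and 4.68% a ZT12 site in the same window. The share at the protocadherin promoters is thus not separated from that of all genes by its counting error. The gamma starts were nearer to a site than those of the other sets, with a median of 26.4 kb at ZT0 and 32.6 kb at ZT12. The C-type genes Pcdhgc3, Pcdhgc4 and Pcdhgc5, which stand last before the constant exons, were 35.0, 26.4 and 21.9 kb away at ZT0 and 40.4, 37.1 and 32.6 kb away at ZT12. Pcdhga3, the first annotated gamma exon, was 91.5 kb away at ZT0.

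At the gamma constant exons (37984675 to 38001527) the times differed by 1 site. A site at 38001105 to 38001252 was listed at ZT0 only, in the non-coding 3′ part of the last constant exon, which every annotated gamma transcript but none of the alpha or beta transcripts carries. It was 148 bp wide, and 0.138% of the ZT0 list was narrower. No replicate values stand behind this difference.

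Downstream of the gamma constant exons the listed sites were dense, with 8 at ZT0 and 7 at ZT12 within 200 kb. Of 13183 windows of 200 kb laid end to end over the genome, 49 held 8 or more ZT0 sites (0.372%) and 26 held 7 or more ZT12 sites (0.197%). The 200 kb upstream of Pcdha1 held none. The density over the whole interval, 7.62 sites per Mb at ZT0 and 6.10 at ZT12, thus came mainly from this downstream side.

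The downstream extension is known to hold HS16 to HS20, and its first sites lay in Diap1, which encodes a formin that nucleates actin filaments and is transcribed towards the gamma set. Introns of Diap1 held 3 sites at both times, at 38011735 to 38012194, 38043124 to 38043539 and 38067738 to 38068042 in the ZT0 list. The next ZT0 site, at 38095131 to 38095519, began 1 bp past the 5′ end of Diap1 (38095130) and reached into the 3′ end of Hdac3 (38095498), the gene of a histone deacetylase. Its midpoint lay at -0.195 kb from the Diap1 start, the minus sign meaning upstream. The annotation gives no coordinates for the HS elements, so which of these sites lies in one was not determined.

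Further downstream, a site shared by both lists lay in Arap3, a gene for a GTPase-activating protein. Its midpoint fell in an intron at ZT0 (38143886 to 38144345) and in a coding exon at ZT12 (38143864 to 38144234). Between genes, at -7.07 kb from the Arap3 start, the site at 38164159 to 38164443 was listed at ZT0 only. The last sites, at 38173232 to 38173804 and 38184570 to 38185002 in the ZT0 list, were also between genes and were shared. The last one stood 16.5 kb inside the edge of the interval, and the next site beyond the edge, at 38318867 to 38319137, was 117 kb away from it.

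Comparing the times over the interval, sites were counted as shared at an overlap of 1 bp or more. By this count 8 of the 10 sites of the ZT0 list were shared (80.0%, 95% confidence interval 49.0 to 94.3%), against 56.2% of all ZT0 sites and 55.6% of those on the rest of chromosome 18. All 8 sites of the ZT12 list were shared (95% confidence interval 67.6 to 100%), against 83.6% of all ZT12 sites. Both background shares lay inside these intervals. No site of the interval was listed at ZT12 only. The sites listed at ZT0 only were those at the last gamma constant exon and upstream of Arap3.

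The shared sites were mostly narrower at ZT12. Of the 8 pairs, 7 were narrower (87.5%) with a median difference of -77 bp, as were 4035 of the 5665 pairs of both whole lists (71.2%), with a median of -47 bp. The widest ZT0 site, at 38173232, was 573 bp wide, and its ZT12 partner 360 bp. The exception was the site at the Diap1 start, which was 389 bp wide at ZT0 and 406 bp at ZT12.

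**Figure D2:**
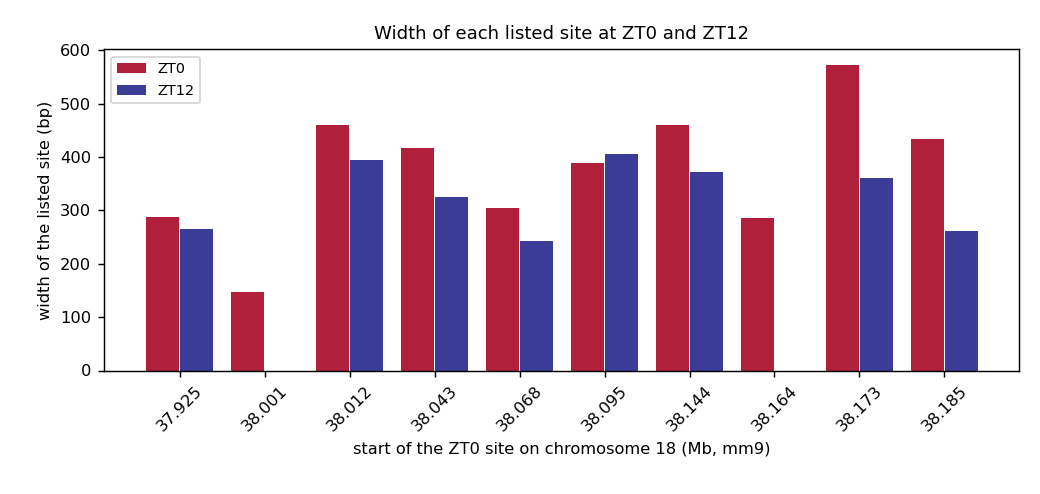
Width in bp of the 10 sites listed in the interval at ZT0 (red) and of the 8 listed at ZT12 (blue), in order along the chromosome, each bar being 1 listed site without a replicate. In 7 of the 8 pairs the ZT12 bar is lower, and the sites at 38001105 and 38164159 have no ZT12 bar.

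To set the listed sites beside the DNA sequence, a weight matrix of 19 bp was learned from the listed sites of other chromosomes. Its most frequent bases are shown because this is the pattern searched for on both strands, with a capital where 1 base made up at least 60% of the sites:
CTCF matrix: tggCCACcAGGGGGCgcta
A match was counted at a score that a share of 0.0001 of the positions in regions 5 kb from the sites passes (p of 0.0001 per position), and called strict at a score that 1% of those regions pass. Each matrix had its own scores for this. In sites on chromosomes not used to learn the first matrix, 94.3% held a match and 67.8% a strict one. For the second matrix it was 94.4 and 62.9%. The lists are labelled as searched for motifs, and whether sites without a motif were removed is not given in the sources used here, so these shares, and those of listed sites with a match below, may be set in part by how the lists were made. A match describes the sequence and not the binding of the protein.

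How often the variable promoters held a CTCF motif match depended on the score. Within 500 bp of the exon start, a strict match was found at 2 of the 41 (4.88%, 95% confidence interval 1.35 to 16.1%), which is near the 4.02% of all protein-coding promoters. At p of 0.0001, 25 of the 41 held a match (61.0%, 95% confidence interval 45.7 to 74.3%), against 23.8% of all protein-coding promoters. The alpha (9 of 10) and beta (14 of 22) sets made up 23 of these, while the gamma share of 2 of 9 (22.2%) was near the background. All 25 were on the strand of the gene, against 53.4% of the matches at protein-coding promoters. The members of a set descend from common ancestors and share sequence, so these matches are not independent of each other.

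Counted from the annotated exon start, the sets differed in where the matches lay. Whether that start is the transcript start or the start of the coding part was not checked for each set. The offsets, and the windows around the starts, may therefore not refer to the same point in each set. In the alpha set 9 of 10 exons had a match, the best of which lay upstream of the exon start in 5, at -221 to -122 bp, and inside the exon in 4, at 453 to 456 bp. The strict matches were both of the second kind and belonged to Pcdha1 (score 23.06, log2 odds) and Pcdha4 (19.91). Pcdhac2 had none, with a best score of 9.92. In the beta set 14 of 22 had a match, all upstream at -112 to -41 bp, with scores from 12.61 to 15.88. The 8 others scored between 10.92 and 11.84, just under the threshold of 12.10. In the gamma set only Pcdhga3 (12.34, at -78 bp) and Pcdhga12 (14.39, at 232 bp) passed, and the other 7 scored at most 8.89 in this window. The match of Pcdhga12, at 37925466 to 37925484 on the plus strand, lay inside both of its listed sites.

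**Figure D3:**
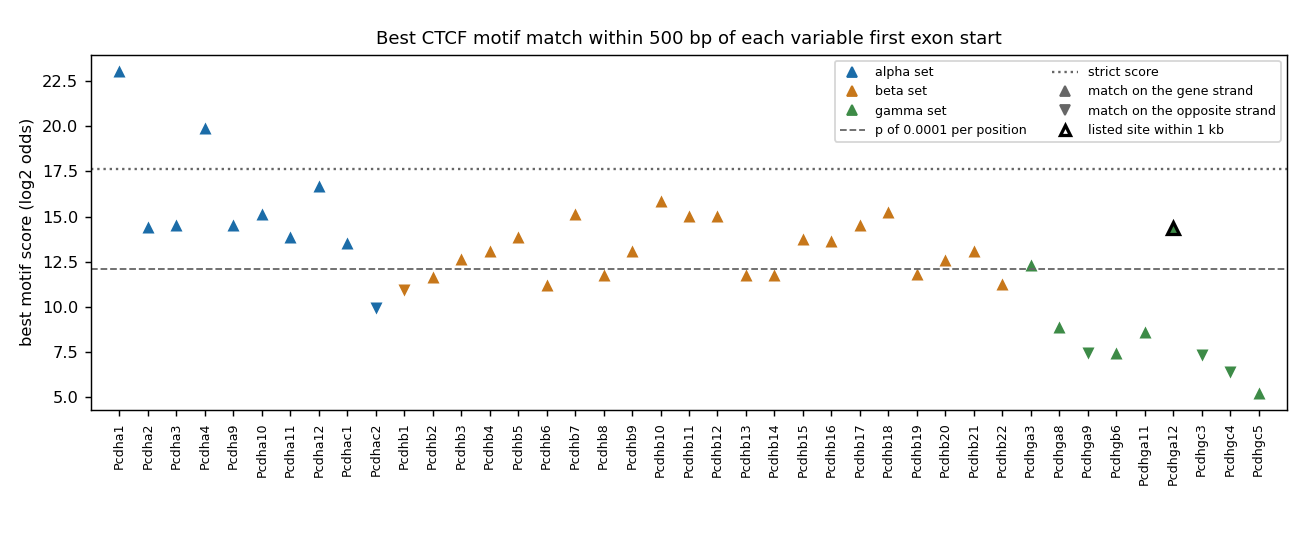
Best CTCF motif score (log2 odds) within 500 bp of the start of each of the 41 variable first exons, in order along the chromosome. Triangles point up for matches on the strand of the gene and down for the opposite strand, and lines mark the match threshold of 12.10 and the strict threshold of 17.65. All 25 triangles above the lower line point up, and Pcdhga12 (black outline) is the only exon with a listed site within 1 kb.

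Searched over their whole length, 20 of the 41 variable exons held a match (48.8%, 95% confidence interval 34.3 to 63.5%). Windows of their median length, 2841 bp, laid from the 5′ end of all protein-coding genes into the gene held one in 35% of cases, which lies inside that interval. By set, the exon shares were 60% in the alpha, 45.5% in the beta and 44.4% in the gamma set. Windows of the median exon length of each set gave 31.7, 39.4 and 33.2%, each inside the 95% confidence interval of its set. The strands of matches in these windows were not counted. In the alpha set 6 exons held a match, all on the strand of the gene and between 453 and 543 bp past the start. In the beta set there were 10, all on the opposite strand and between 2324 and 2398 bp past the start, in exons of 2795 to 4662 bp. In the gamma set there were 4, in Pcdhga8 (16.51, on the opposite strand at 2254 bp), Pcdhga9 (12.40), Pcdhga12 (14.39) and Pcdhgc5 (13.23). Of these 20 matches, that of Pcdhga12 was the only one in a listed site. At the variable promoters with a match, 1 of 25 had a site (4%, 95% confidence interval 0.710 to 19.5%) at each time, whereas of the 5329 protein-coding promoters with a match 21.3% had a ZT0 site and 14.7% a ZT12 site. The ZT0 share lay just above the interval and the ZT12 share inside it. Leaving the strict matches out, the share was 1 of 23 (4.35%, 95% confidence interval 0.772 to 20.99%) against 14.2% at ZT0 and 8.40% at ZT12, both inside the interval. Neither of the strict matches at Pcdha1 and Pcdha4 had a site, against 56.5% of all promoters with a strict match at ZT0 and 45.5% at ZT12, from which 2 promoters are too few to be set apart.

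Strict matches were then counted over the whole interval. There were 22, and 8 overlapped a site of either list (36.4%), against 27.1% of the 27506 strict matches of the genome. They divided by place, a division made after the positions were seen. Before the gamma constant exons 0 of 12 overlapped a site, and from the gamma constant exons on it was 8 of 10. Of the 12, 11 lay in the gap of 1074 kb, which is defined by holding no site, so their count restates the gap. Of the 12 matches, 9 scored less than 1 above the strict threshold, a range in which 13.9% of the matches of the genome overlapped a site, against 32.7% of those with higher scores.

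The 12 matches without a site included 5 in the alpha variable region, all on the plus strand, the strand of the genes. Of these, 2 were those of Pcdha1 and Pcdha4, and 3 lay outside the annotated variable exons, between Pcdha4 and Pcdha9. Whether these 3 fall in variable exons that the annotation lacks was not determined. The interval known to hold HS5-1 had 2, at 37377118 to 37377136 on the minus strand and at 37395509 to 37395527 on the plus strand, with scores of 18.25 and 18.12. The beta genes had none. Of the 12 matches, 11 held a CG (91.7%), against 43.5% of the strict matches of the genome. Of the 8 matches of the interval in a listed site 7 held one (87.5%), and the 2 downstream matches without a site held none. Over the genome a CG was found in 57.5% of the strict matches in a listed site and in 38.3% of those in none. DNA methylation was not measured, and its part in the result was not tested.

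Among the listed sites, the highest score of the interval was at the last gamma constant exon. The match there, at 38001104 to 38001122 on the minus strand, scored 25.74 and began 1 bp before the listed edge of the site. The site in Arap3 had 24.84 on the plus strand and the site at the Diap1 start 22.62 on the minus strand, and both were shared. With matches that overlap an edge counted, 9 of the 10 ZT0 sites had a match, the exception being the third site in Diap1 with a best score of 11.67. This wider count was not made for the other sites. Inside the listed edges alone, 8 of the 10 had a match (80%), against 94.1% of all ZT0 sites. In the 9 sites of the wider count, the best match was on the plus strand in 4 and on the minus strand in 5. The strand of the site at 38043124 rests on a near tie, as it held strict matches on both strands, with scores of 18.95 on the minus and 18.93 on the plus strand. Along the chromosome, the match at Pcdhga12 was on the plus strand and the best matches of the next ZT0 sites, at the last gamma constant exon and at 38011735, were on the minus strand.

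Some of the downstream strict matches were not listed either. The match at 38046818 to 38046836 in Diap1 scored 22.43, higher than all but 3 of the matches in listed sites of the interval, and it had no CG. The other, at 38037177 to 38037195, scored 18.49.

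Because the variable exons resemble each other, reads from them can map to several places, and the authors kept only reads with a mapping quality of at least 30. As a measure of this, stretches of 31 bp that occur once in the genome were counted. At the alpha promoters a median of 78.8% of the stretches were unique, with 8 of 10 promoters under 90%. The beta and the gamma promoters both had a median of 100%, with 4 of 22 (18.2%) and 1 of 9 (11.1%) under 90%. Of the 493 other protein-coding promoters of the chromosome, 65 were under 90% (13.2%), with a median of 100%, so the beta and gamma shares were near the background. Over the whole first exons the median was 80.6% in the alpha, 88.2% in the beta and 99.3% in the gamma set, with 8 of 10, 13 of 22 (59.1%) and 1 of 9 exons under 90%. Of the longest exons of the other protein-coding genes of the chromosome, 80 of 492 were under 90% (16.3%). The 18 listed sites of both times had between 90.7 and 100%. Among the variable promoters with a match and at least 90% of unique stretches, 1 of 13 had a site (7.69%, 95% confidence interval 1.37 to 33.3%). Of the 114 other protein-coding promoters of the chromosome that passed the same filter, 19.3% had a ZT0 site and 16.7% a ZT12 site, both inside this interval. The part of the mapping in the absence of listed sites from the alpha and beta sets was not tested.

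The protocadherins outside the clusters, which have complete genes of their own, were taken as a list of 13. The list includes Cdhr1, a gene whose symbol does not start with Pcdh. Within 1 kb of the start, 2 had a site at both times (15.4%, 95% confidence interval 4.33 to 42.2%), Pcdh1 and Pcdh15. The share of all protein-coding genes, 7.04% at ZT0 and 4.68% at ZT12, lay inside this interval. Pcdh1, which lies downstream of the interval on the same chromosome, had its nearest site at 0.587 kb at ZT0 and 0.721 kb at ZT12, and its promoter held a strict match (17.91). Pcdh15, known for its part in the hair cells of the inner ear, had one at 0.979 and 0.919 kb. The median distance over the 13 genes was 624 kb at ZT0 and 1149 kb at ZT12, so most of them also lay far from a listed site.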

How the data were processed

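CTCF ChIP-seq reads were aligned by the authors to NCBIM37/mm9 with Bowtie2, filtered with SAMtools at a mapping quality of 30, cleared of duplicates and used to call peaks with MACS2. The deposited lists give the positions (chromosome, start and end, counted from 0) of the peaks of both replicates per time point, labelled as searched for motifs. How the replicates were combined is not given in the sources used here, nor is how sites were chosen for the lists, which are far shorter than the study's full set of sites. Positions are printed counted from 1.

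A site was shared where 1 bp or more of it lay in a site of the other list. Genes came from GENCODE (mm9). Variable exons of merged entries were named by the RefSeq gene (GRCm38.p6) whose length equals the distance from the exon to the end of the set (18 exons, differences of at most 297 bp, the next best gene at least 2395 bp off). Constant exons are those with the same start in at least 5 transcripts of the alpha or the gamma set. Each matrix was started from the most enriched stretch of 12 bp and refined over 3 rounds, and the overlap and motif steps were tested on simulated data. Named were the protocadherin genes with a site, the first, last and C-type genes of each set, the gene starts nearest to the sites and a list of protocadherins outside the clusters. Also named were the variable exons with a strict match, the gamma exons with a match and other genes that a named site overlapped. The members and lists were chosen with earlier results of these data known. The tools were pysam 0.24.0 for sequence, pandas 2.3.3 for tables, SciPy 1.17.1 for intervals and NumPy 2.4.6 for scoring, under Python 3.11.15.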

Additional observations from a re-analysis of the deposited data

How the results depend on the processing

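Requiring 50% of both sites to overlap, or allowing gaps of 500 bp, left 8 shared sites at both times, and windows of 500 or 2500 bp or every annotated transcript start left 1 variable promoter with a site. The number of sites followed the extension. Without one there were 2 sites at ZT0 and 1 at ZT12, of which 1 was shared. With 100 kb there were 6 and 5, of which 5 were shared, and with 500 kb 17 and 16, of which 15 were shared. With the 5′ ends of the gene entries in place of the variable exons, an alternative chosen after seeing the data, 0 promoters had a site at either time, since the merged gamma entry starts at Pcdhga3. Strict motif matches at 2 promoters became 0 between 250 bp upstream and 50 bp downstream. At p of 0.0001 there were 25, and 20 in that shorter window, the last also chosen after seeing the data. In the shorter window 2.22% of all protein-coding promoters held a strict match. At p of 0.0001 it was 10.4% of them, against 48.8% of the variable promoters. No paired analysis was possible because both replicates of a time share a single list. Leaving out a replicate and a stricter score were not run, as the lists hold neither.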
